A study of Mus musculus with 21 samples.

Results

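H19, Igf2, Meg3, Dlk1, Peg3, Cdkn1c, Grb10, Plagl1, Ndn and Snrpn are imprinted genes, most of them tied to growth before birth. They were selected by gene symbol, and all 10 were found once in each of 3 deposited tables, which hold 40770 genes for the linc-Brn1b strain and 42760 genes for the Peril and Fendrr strains. Homozygous lincRNA knockout mice were compared with wild-type littermates, which gives 10 groups. They are whole brain at E18.5 for Peril, lung at E14.5 for Fendrr and, for linc-Brn1b, telencephalon at E13.5 and at E15.5 and whole brain at P7, each in both genotypes. In the labels Peril goes by the name of its neighbour Sox2, and Fendrr by that of Foxf1a. There were 2 libraries per group, but 3 are labelled as linc-Brn1b knockout at E15.5, where the study states 2. In every knockout a lacZ reporter cassette replaces the lincRNA gene, so the knockouts carry the cassette and the wild types do not. The alleles were made in VGF1 hybrid embryonic stem cells, and the founders were backcrossed to C57BL/6J.

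Imprinted genes are read mainly from the copy of one parent. Igf2, Dlk1, Peg3, Plagl1, Ndn and Snrpn are expressed from the paternal copy, while H19, Meg3 and Cdkn1c are expressed from the maternal copy. Grb10 is maternal in most tissues and paternal in neurons. Igf2 encodes a growth factor of the fetus, Grb10 an adapter that dampens insulin and IGF receptor signalling, and Cdkn1c an inhibitor of cyclin-dependent kinases. Many of these genes are switched down together as growth slows after birth, whereas Igf2 stays on in the choroid plexus and meninges of the brain. Reads were not assigned to parental alleles here, so the values below are totals over both copies.

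Each table gives 1 expression level per group, in FPKM (fragments scaled to transcript length and to the mapped fragments of the library), and no value per library. The spread between animals is therefore unknown, and no difference below has a replicate check, an error or a p-value. Differences are given on the log2(FPKM + 1) scale, which understates changes of low genes. A gene was kept where its mean over the groups of its table was at least 1 FPKM, and a difference of 1.5-fold on this scale was taken as a call. Of the 10 genes, 9 were kept in each table: H19 fell below the minimum in both brain tables, and Snrpn in the lung table. The tables were normalized separately, and levels set across them are descriptions only.

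The knockout labels and tissue labels were set against the tables. The row linc-Cox4nb-4, which covers Fendrr, was 38.4 FPKM in wild-type and 0.0450 in knockout lung, and linc-Brn1b was between 0.799 and 2.498 FPKM in the 3 wild-type groups and listed at 0 in each knockout. For Peril, the row that overlaps the locus, linc-Atp11b-4, was 0.0109 FPKM in wild type and 4.65 in the libraries labelled knockout. This row also covers sequence outside the deletion, and whether that bears on its higher value under the knockout label was not tested. Which of the Peril columns is knockout was read from their name in the order that the linc-Brn1b table uses, and every direction for this strain follows that label. All 8 telencephalon markers passed 1 FPKM in each of the 8 brain groups, and all 9 lung markers did so in both lung groups. The 4 Y-linked genes of the marker lists were each at least 2.07 FPKM in one genotype and at most 0.0184 FPKM in the other, in all 5 comparisons. They were present in wild type in the E14.5 lung and the E13.5 telencephalon, and in knockout in the other comparisons. Genotype and the sex of the pooled animals thus cannot be told apart within any comparison. None of the 10 genes lies on a chromosome that carries one of the targeted lincRNAs, 3, 8 and 1.

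H19 and Igf2 are neighbours on chromosome 7 and share enhancers. Between them lies a control region where the insulator protein CTCF binds the unmethylated maternal copy and keeps Igf2 silent there. In mm9, H19 is annotated on the minus strand at chr7:149761434-149764048 and Igf2 on the minus strand at chr7:149836673-149852721, with 72624 bases between them. Both strands of this interval were searched for a strict form of the CTCF motif, CCGCGNGGNGGCAG. The search gave 3 matches, all on the strand of H19 and 2166, 2621 and 3891 bases upstream of its start. They are shown because H19 and Igf2 are read as a pair below. Capitals mark the match, and the strand printed is the minus strand.
match at chr7:149766206-149766235: agacgatgCCGCGTGGTGGCAGtacaatac
match at chr7:149766661-149766690: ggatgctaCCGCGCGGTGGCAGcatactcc
match at chr7:149767931-149767960: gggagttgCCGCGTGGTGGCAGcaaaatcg
Of 28376 windows of 5000 bases along chromosome 7, 7 (0.0247%) held at least 1 match, and 1 held at least 3. Only this exact form was counted, so the share says nothing of how common CTCF sites are. The interval was searched because CTCF is known to bind there, so the matches are no test of binding.

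The row with the symbol H19 carried almost none of the signal of its locus. In the 8 brain groups it ranged from 0 FPKM in the P7 knockout to 0.158 FPKM in wild-type brain at E18.5, and it was 9.67 FPKM in wild-type and 8.25 in knockout lung. A second row with the same locus in the tables, named linc-Ctsd in the Peril and Fendrr tables and AK145379 in the linc-Brn1b table, held far more. The read counting divided overlapping transcripts between rows, and the tables do not show how. This second row is called the H19-locus row below, and it was no member of the 10.

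The H19-locus row was among the highest of all rows in lung, at 2179 FPKM in wild type (rank 15 of 13968 genes kept) and 2631 FPKM in knockout (rank 14). In E18.5 brain it was 146 FPKM in wild type and 84.0 in the libraries labelled knockout. In the linc-Brn1b strain it was 85.8 FPKM in wild type and 56.0 in knockout at E13.5. At E15.5 it was 37.6 and 33.2 FPKM, and at P7 it was 18.1 and 7.20 FPKM. Within the linc-Brn1b strain the level was thus lower at each later age in both genotypes, with whole brain in place of telencephalon at P7. The knockout value was the lower in each of the 4 brain comparisons, by label in the Peril strain.

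Igf2 was the highest of the 10 symbol rows in lung, at 409 FPKM in wild type and 578 in knockout. In E18.5 brain it was 115 FPKM in wild type and 81.2 in the libraries labelled knockout. In the linc-Brn1b strain Igf2 was 46.1 FPKM in wild type and 29.1 in knockout at E13.5, 13.7 and 9.97 FPKM at E15.5, and 76.5 and 58.5 FPKM at P7. Unlike the H19-locus row, Igf2 was lowest at E15.5 and higher again at P7 in both genotypes.

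**Figure D1:**
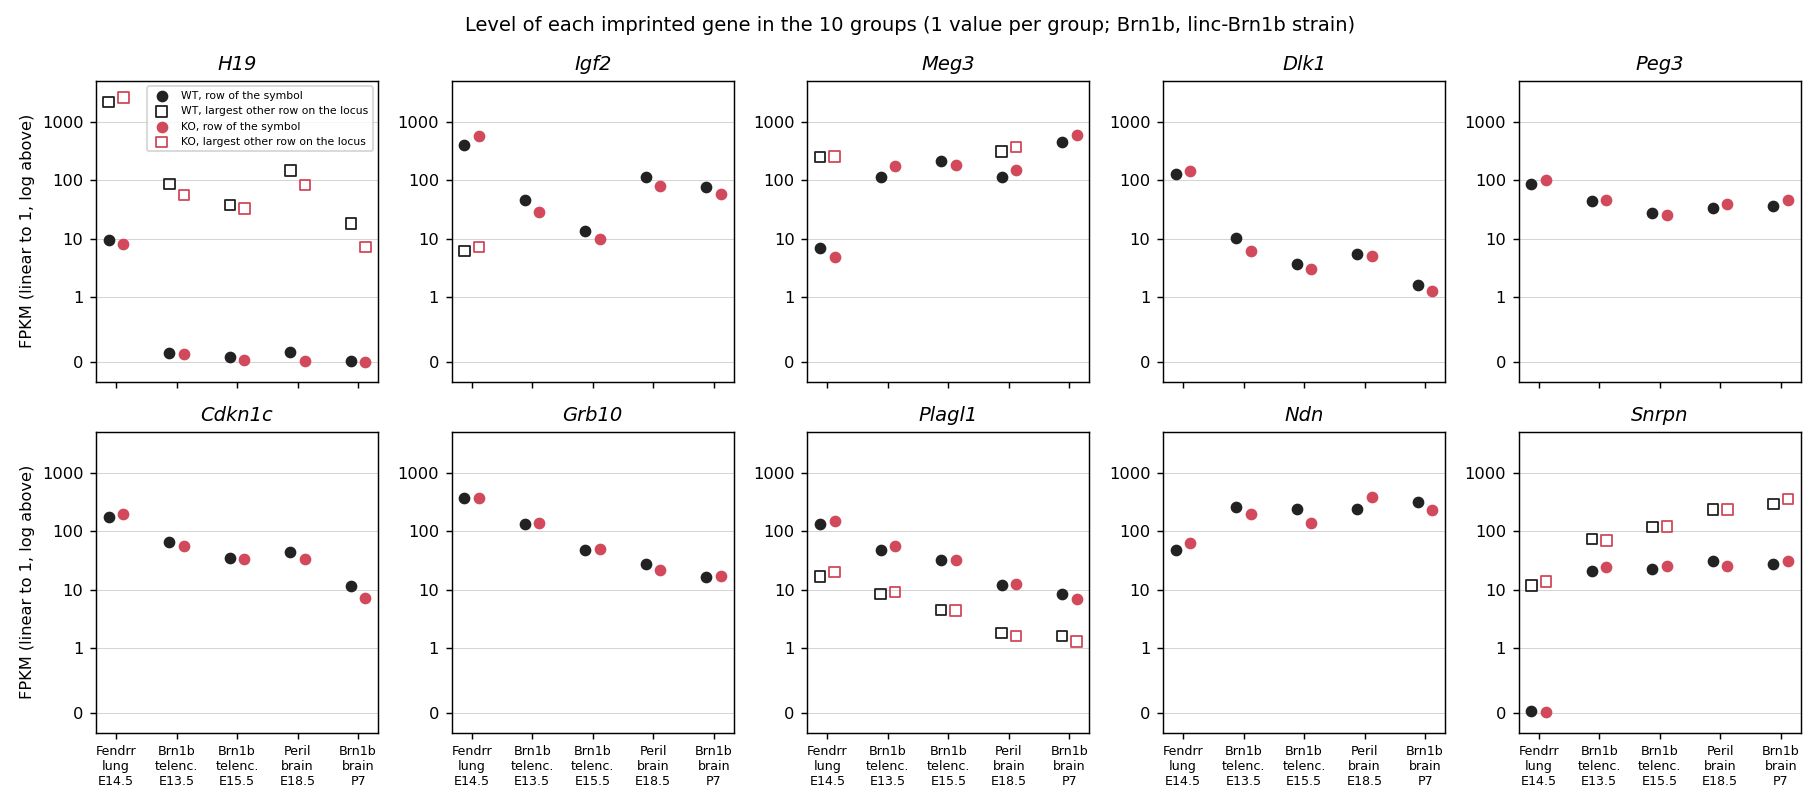
Level in FPKM (vertical axis, linear to 1 and logarithmic above) of each of the 10 genes in the 10 groups, ordered by age within lung and brain, wild type in black and knockout in red. Open squares are the largest other row on the same locus, which for H19 lies between 7.20 and 2631 FPKM while the H19 row itself stays at or below 9.67 FPKM.

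Dlk1 and Meg3 lie side by side on chromosome 12, at chr12:110691033-110701546 and chr12:110779211-110809936 of mm9, both on the plus strand, and are imprinted in opposite directions. Dlk1, a transmembrane ligand related to the Notch ligands, was 128 FPKM in wild-type and 145 in knockout lung. In brain it was 5.52 and 5.03 FPKM at E18.5 in the Peril strain, and 10.3 and 6.16 FPKM at E13.5, 3.70 and 3.0 FPKM at E15.5 and 1.59 and 1.29 FPKM at P7 in the linc-Brn1b strain, with wild type given first. Dlk1 was the lowest of the 9 genes kept in each of the 8 brain groups.

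Meg3, a long noncoding RNA, took the opposite course. It was 6.85 FPKM in wild-type and 4.92 in knockout lung, and between 116 and 588 FPKM in the 8 brain groups. In the linc-Brn1b strain it was 116 and 175 FPKM at E13.5, 214 and 185 FPKM at E15.5 and 457 and 588 FPKM at P7, and in the Peril strain it was 116 and 149 FPKM. The P7 knockout level ranked 39 of 14090 genes kept. In the Peril and Fendrr tables another row on the locus, linc-Dio3-3, held 311 and 370 FPKM in E18.5 brain and 252 and 256 FPKM in lung. The low Meg3 value of lung thus belongs to the symbol row only, and the locus as a whole was read in lung as well.

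Because Meg3 rose with age in wild type while its neighbour fell, its promoter is shown, from RefSeq on GRCm38.p6 (chr12:109540746-109541045, plus strand, a window over the transcription start). Capitals mark TATAAA and its reverse complement, which overlap and begin 29 bases before the start.
Meg3: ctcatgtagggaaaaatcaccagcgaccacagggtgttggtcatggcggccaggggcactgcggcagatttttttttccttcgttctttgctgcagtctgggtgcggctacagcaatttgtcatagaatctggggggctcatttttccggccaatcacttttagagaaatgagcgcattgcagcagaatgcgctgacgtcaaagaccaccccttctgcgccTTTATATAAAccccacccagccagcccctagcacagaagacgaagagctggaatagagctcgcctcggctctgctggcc
TATAAA on either strand occurs in 4473 of 32851 RefSeq promoters of this length (13.6%), and in 2 of the 16 listed for the 10 genes, those of Meg3 and Snrpn. Of the 10 genes, 8 have an entry.

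Grb10, Cdkn1c and Plagl1, like Dlk1, were lower at each later age of the linc-Brn1b strain in both genotypes. Grb10 was 365 and 370.4 FPKM in lung, 131 and 138 FPKM at E13.5, 47.7 and 50.7 FPKM at E15.5 and 16.8 and 17.2 FPKM at P7, wild type first. In the Peril strain it was 27.1 and 21.8 FPKM. Wild type and knockout of the linc-Brn1b strain stayed close to each other at all 3 ages.

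Cdkn1c was 178 and 200.4 FPKM in lung, 65.6 and 55.7 FPKM at E13.5, 35.1 and 33.7 FPKM at E15.5 and 11.5 and 7.09 FPKM at P7. In E18.5 brain it was 44.9 and 33.4 FPKM. Plagl1, a zinc finger transcription factor also known as Zac1, was 132 and 151 FPKM in lung, 48.5 and 55.8 FPKM at E13.5, 31.8 and 32.3 FPKM at E15.5, 8.61 and 7.06 FPKM at P7 and 11.9 and 12.4 FPKM in E18.5 brain. All 3 genes were higher in lung than in any brain group.

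The symbol rows of Peg3, Ndn and Snrpn had the narrowest ranges over the 8 brain groups. Peg3, a zinc finger protein, ranged from 26.01 to 46.5 FPKM over the 8 brain groups, a ratio of 1.79, and was 86.1 and 103 FPKM in lung. The Peg3 promoter is shown because it holds the motif GGGGCCCC, of the kind bound by Plagl1. It is taken from RefSeq (GRCm38.p6, chr7:6730370-6730669, minus strand), and the match, in capitals, begins 201 bases before the start.
Peg3: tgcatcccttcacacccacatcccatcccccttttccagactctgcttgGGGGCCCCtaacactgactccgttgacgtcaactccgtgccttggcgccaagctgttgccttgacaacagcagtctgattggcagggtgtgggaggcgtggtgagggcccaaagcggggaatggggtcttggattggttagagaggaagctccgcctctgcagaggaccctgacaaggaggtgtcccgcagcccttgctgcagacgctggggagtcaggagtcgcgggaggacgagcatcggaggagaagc
This motif, its own reverse complement, occurs in 354 of 32851 promoters (1.08%) and in 1 of the 16 of these genes. Peg3 and Plagl1 were among 6 of the 9 genes kept that fell past 1.5-fold from E13.5 to E15.5, and they parted by P7. Over the 6 linc-Brn1b groups their Pearson's r was -0.129. Whether Plagl1 acts on Peg3 was not tested.

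Ndn, a protein of the MAGE family that is abundant in neurons, was the highest of the 10 symbol rows in both genotypes at E13.5 and in E18.5 brain and in wild type at E15.5. It was 264 and 200.3 FPKM at E13.5, 243 and 140 FPKM at E15.5, 312 and 231 FPKM at P7, 245 and 386 FPKM in E18.5 brain and 48.8 and 63.9 FPKM in lung, wild type first. Snrpn, which encodes a splicing factor subunit, ranged from 21.4 to 31.4 FPKM over the 8 brain groups and was 0.0336 and 0.0195 FPKM in lung. Snurf, whose reading frame lies on the same transcripts as Snrpn, held more of the locus, with 74.4 and 69.0 FPKM at E13.5, 119 and 121 FPKM at E15.5 and 291 and 355 FPKM at P7. The ratio of Snurf to Snrpn went from 3.48 in wild type at E13.5 to 10.7 at P7, so that the age course of this locus depended on the row that was read. Summed over the rows of the locus, Snrpn differed by 0.56 in wild type and 0.64 in knockout from E13.5 to E15.5, and by 1.16 and 1.39 from E15.5 to P7.

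The first step of development, from E13.5 to E15.5 in the telencephalon, asks how the genes change while the cortex forms. In wild type, 6 of the 9 genes kept fell past 1.5-fold, where 7.66% of all genes kept did, and 1 rose, where 8.61% did. In knockout, 6 fell (7.29% of all genes) and none rose (10.2% of all genes). The same 6 genes, Igf2, Grb10, Dlk1, Cdkn1c, Peg3 and Plagl1, fell in both genotypes, where 4.96% of all genes kept did. No member rose in both, against 4.41% of all genes. The 2 genotypes are separate libraries, and their agreement is the only repeat of this step. The sex of the pooled animals changed over it as well, in opposite directions in the 2 genotypes. The 4 Y-linked genes summed to 49.2 and 0.00662 FPKM in wild type at E13.5 and E15.5, and to 0.0133 and 21.0 FPKM in knockout. Age and sex thus cannot be told apart within either genotype here.

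Igf2 differed by -1.68 in wild type and -1.45 in knockout on the log2(FPKM + 1) scale, and only 90 of 14090 genes differed by more in wild type. Grb10 differed by -1.44 and -1.42, and Dlk1 by -1.27 and -0.84. Cdkn1c followed with -0.88 and -0.71, Peg3 with -0.63 and -0.78, and Plagl1 with -0.59 and -0.77. The wild-type value of Plagl1 lay just past the threshold of 0.58. The H19-locus row differed by -1.17 and -0.74, in the direction of Igf2.

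Meg3 rose by 0.87 in wild type and differed by 0.08 in knockout, where it was already high at E13.5. Ndn differed by -0.12 and -0.51 and Snrpn by 0.08 and 0.04. Over the 9 genes the median difference was -0.63 in wild type and -0.77 in knockout, beside 0.02 and -0.02 over all genes kept. Summed over the 10 markers of meninges and fibroblasts, expression went from 94.2 to 6.11 FPKM in wild type and from 50.7 to 4.08 FPKM in knockout over the same step. Proliferation markers went from 649 to 301 and from 615 to 312 FPKM. The part of either cell population in the falls was not tested. In bulk tissue, fewer cells of a type and less RNA per cell cannot be told apart.

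The second step led from E15.5 telencephalon to P7 whole brain and shares the E15.5 libraries with the first. Age and brain region change together here and cannot be told apart. In wild type 4 of the 9 genes fell (27.7% of all genes kept) and 2 rose (22.4%). In knockout 4 fell (27.9%) and 4 rose (23.3%). Cdkn1c, Plagl1, Grb10 and Dlk1 fell in both genotypes (23.6% of all genes), and Igf2 and Meg3 rose in both (20.1%).

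Plagl1 differed by -1.77 in wild type and -2.05 in knockout, Cdkn1c by -1.53 and -2.10, Grb10 by -1.45 and -1.51 and Dlk1 by -0.86 and -0.80. Igf2 turned upward, by 2.39 and 2.44, and lay above 98.0% and 97.6% of all genes kept. Meg3 rose by 1.09 and 1.66. Peg3 (0.37 and 0.81) and Ndn (0.36 and 0.72) passed the threshold in knockout only, and the difference between the genotypes was not tested. Snrpn differed by 0.26 and 0.29.

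The H19-locus row did not follow Igf2 here but fell by 1.01 in wild type and by 2.06 in knockout. The pair thus fell together to E15.5 and parted by P7. The summed meningeal and fibroblast markers were 87.3 FPKM in wild type and 60.3 in knockout at P7, higher than at E15.5, as was Igf2. The choroid plexus markers summed to 254 FPKM in wild type and 6.60 in knockout at E15.5, and to 468 and 321 FPKM at P7. Their part in the Igf2 rise was not tested.

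**Figure D2:**
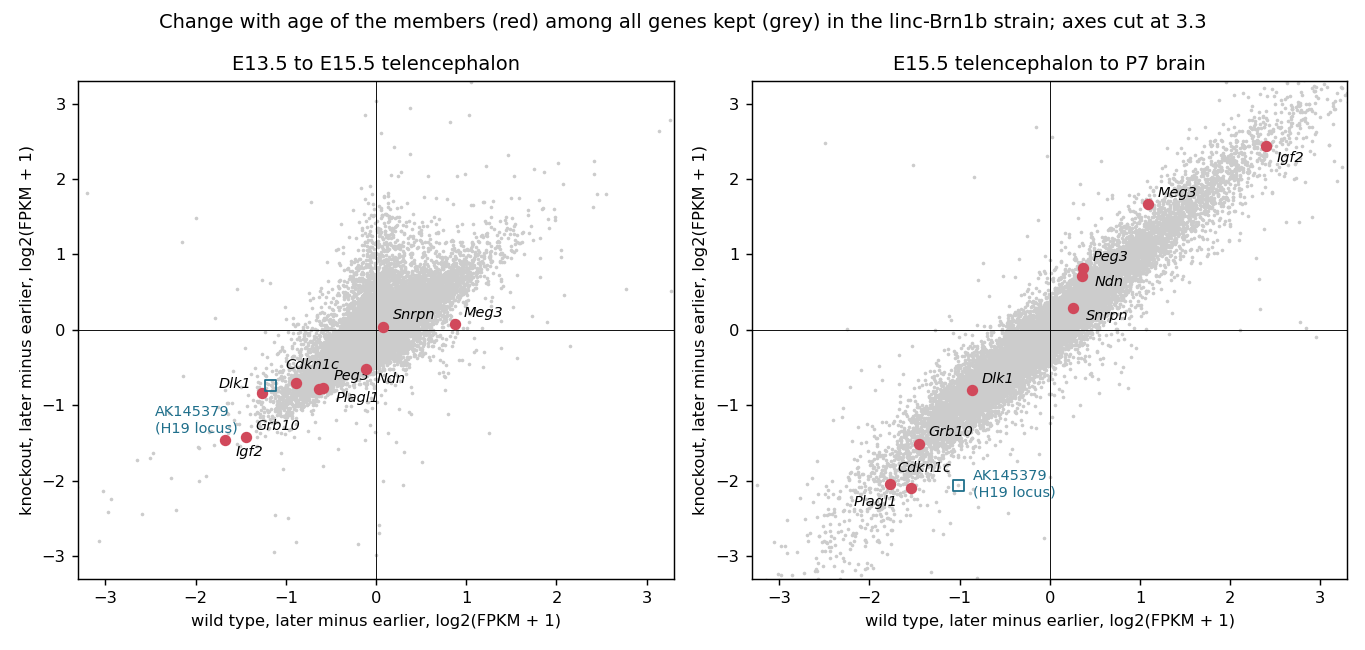
Difference with age on the log2(FPKM + 1) scale in wild type (horizontal axis) and knockout (vertical axis) of the linc-Brn1b strain, from E13.5 to E15.5 telencephalon on the left and from E15.5 telencephalon to P7 brain on the right. Red dots are the 9 genes kept, the square is the H19-locus row and grey dots are all genes kept; Igf2 sits at -1.68 and -1.45 on the left and at 2.39 and 2.44 on the right.

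Loss of linc-Brn1b was compared at 3 ages. At E13.5, 3 of the 9 genes passed 1.5-fold, where 6.65% of all genes kept did in either direction: Dlk1 (-0.66) and Igf2 (-0.65) were lower in knockout and Meg3 (0.59) was higher. Meg3 lay just past the threshold, and its call was lost (0.54) once the median of all genes, 0.05, was subtracted. Grb10, Peg3, Plagl1 and Snrpn differed by 0.05 to 0.20, Cdkn1c by -0.23 and Ndn by -0.40. The H19-locus row differed by -0.61. Of 14090 genes, 742 were lower and 195 higher at this age.

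Several marker lists were lower in the same E13.5 knockout libraries. Of the 9 kept markers of meninges and fibroblasts 8 were lower and 6 of them passed the threshold, with all 10 detected in wild type. Endothelial markers summed to 86.4 FPKM in wild type and 58.8 in knockout (10 of 10 lower), and erythroid markers to 1107 and 468 FPKM. Mature neuron markers summed to 172 and 207 FPKM (8 of 8 higher). Choroid plexus markers summed to 178 and 225 FPKM (6 of 7 kept higher). Their part in the differences of Igf2, Dlk1 and Meg3 was not tested.

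At E15.5, 1 of the 9 genes passed the threshold, where 0.497% of all genes kept did: Ndn, at -0.79, and 49 of 14090 genes differed by more. Igf2 differed by -0.43, a value below which 0.532% of genes lay, although it did not pass the threshold. Dlk1 (-0.23), Meg3 (-0.21) and the H19-locus row (-0.17) were lower as well, and the remaining 5 genes lay between -0.09 and 0.15. Choroid plexus markers differed between these libraries, with a sum of 254 FPKM in wild type and 6.60 in knockout. Ttr, the thyroxine carrier made by the choroid plexus, was 231 and 1.39 FPKM. Meningeal and fibroblast markers summed to 6.11 and 4.08 FPKM, with none above 1 FPKM in knockout. The part of either tissue in these differences was not tested.

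At P7, 1 of the 9 genes passed the threshold, where 4.03% of all genes kept did: Cdkn1c, at -0.62. Ndn differed by -0.43, Igf2 by -0.38, Meg3 by 0.36 and Peg3 by 0.35, and the others lay between -0.25 and 0.18. The H19-locus row, at -1.22, was lower than all but 0.248% of genes. Proliferation markers summed to 50.3 FPKM in wild type and 23.1 in knockout (9 of 9 lower, 6 past the threshold), and oligodendrocyte and astrocyte markers to 762 and 466 FPKM. Midbrain and hindbrain markers summed to 48.2 and 31.2 FPKM, and 5 of the 9 reached 1 FPKM in wild type but 2 in knockout. Of the 2 kept in this list, 1 was lower past the threshold and 1 was higher. Of the 7 kept markers of hypothalamus and pituitary, 5 were higher in knockout, 3 of them past the threshold, and 2 were lower, both past it, with a median of 0.46. The lower ones were the pituitary hormone genes Pomc (26.6 and 1.15 FPKM) and Gh (6.19 and 0.0157 FPKM), and Avp, a hormone gene of the hypothalamus, was 2.98 FPKM in wild type and 11.1 in knockout. The part of any of these cell populations or brain regions in the differences of Cdkn1c, Ndn and Igf2 was not tested.

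In E18.5 brain of the Peril strain, 1 of the 9 genes passed the threshold, where 1.62% of all genes kept did: Ndn, at 0.65, which was higher in the libraries labelled knockout, and 189 of 14405 genes differed by more. Igf2 (-0.50), Cdkn1c (-0.42) and Grb10 (-0.31) were lower, below all but 1.07%, 1.75% and 3.73% of genes. Meg3 (0.35) and Peg3 (0.23) were higher. The H19-locus row passed the threshold, at -0.79. Meningeal and fibroblast markers (122 and 94.8 FPKM, 9 of 10 lower) and choroid plexus markers (859 and 592 FPKM, 8 of 8 kept lower) were lower in the same libraries. Their part was not tested.

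In E14.5 lung of the Fendrr strain, 0 of the 9 genes passed the threshold, where 2.14% of all genes kept did. Igf2 (0.50) and Ndn (0.38) were the highest and Meg3 (-0.41) the lowest, and the H19 symbol row differed by -0.21. The H19-locus row differed by 0.27, so that the symbol row and the locus row had opposite signs. In all, 7 of the 9 were higher in knockout, as were 7179 of all 13968 genes kept, and the difference between these shares was not tested. Cardiac muscle markers summed to 237 FPKM in wild type and 746 in knockout, with 7 of 8 past the threshold, and meningeal and fibroblast markers to 1451 and 1737 FPKM (7 of 7 kept higher). Their part was not tested.

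**Figure D3:**
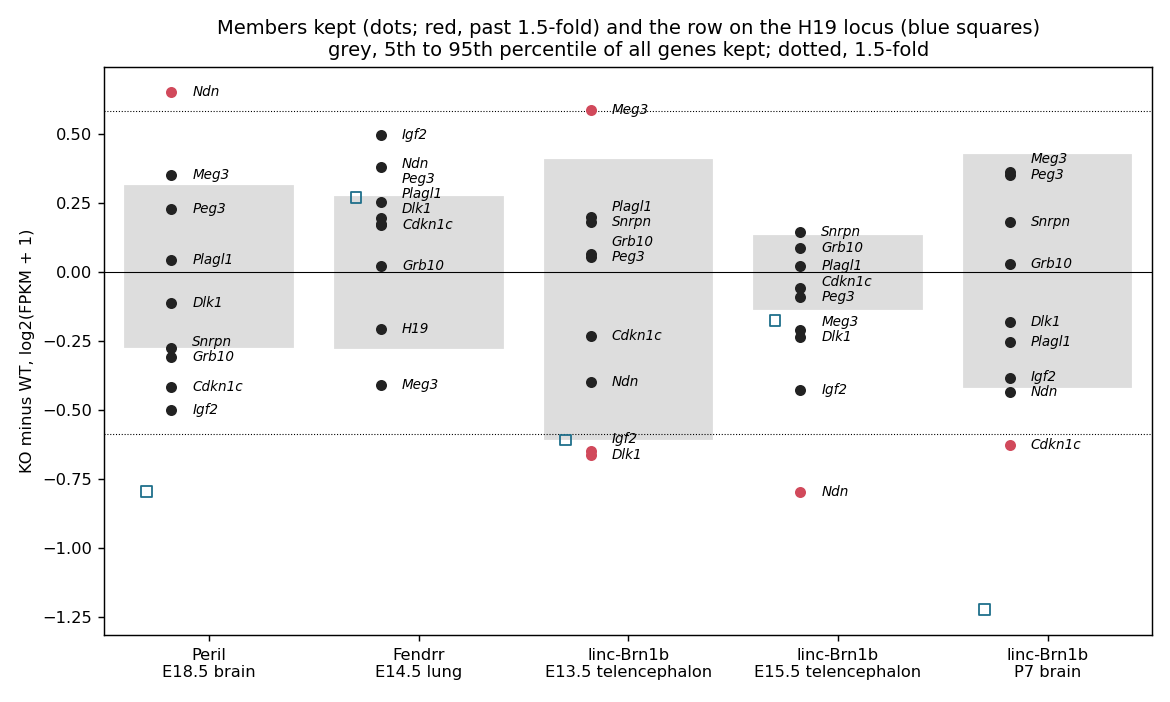
Knockout minus wild type on the log2(FPKM + 1) scale for the genes kept in each of the 5 comparisons, with grey boxes from the 5th to the 95th percentile of all genes kept and dotted lines at 1.5-fold. Red dots passed 1.5-fold, among them Ndn at 0.65 in the Peril strain and -0.79 at E15.5, and blue squares are the H19-locus row, between -1.22 and 0.27.

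Set side by side, Igf2, Dlk1 and Cdkn1c had the lower value in knockout in all 4 brain comparisons, by label in the Peril strain, and the higher value in lung. Over 11777 genes kept in all 3 tables, 5.91% were lower in all 4 brain comparisons, and 3.46% were lower in these and higher in lung. This common sign rests on the Peril labels: with the Peril groups exchanged, none of the 3 genes would keep it. In the 3 linc-Brn1b comparisons alone, Igf2, Dlk1, Cdkn1c and Ndn were lower in each, 4 of the 8 members kept in all tables, where 8.69% of the 11777 genes were. Over the 4 brain comparisons, most differences of Igf2, Dlk1 and Cdkn1c were small. Of these 12 differences, 3 passed 1.5-fold: Dlk1 and Igf2 at E13.5 and Cdkn1c at P7. Ndn passed it at E15.5 (-0.79). The H19-locus row had the signs of Igf2, Dlk1 and Cdkn1c, at -0.79, -0.61, -0.17 and -1.22 in brain and 0.27 in lung. The summed meningeal and fibroblast markers were also lower in knockout in each brain comparison and higher in lung. Pericyte and erythroid markers were lower in each brain comparison too, but also in lung (67.8 and 56.1, and 1787 and 1393 FPKM). Choroid plexus markers were higher in knockout at E13.5 (178 and 225 FPKM). The part of any of these cell populations was not tested.

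**Figure D4:**
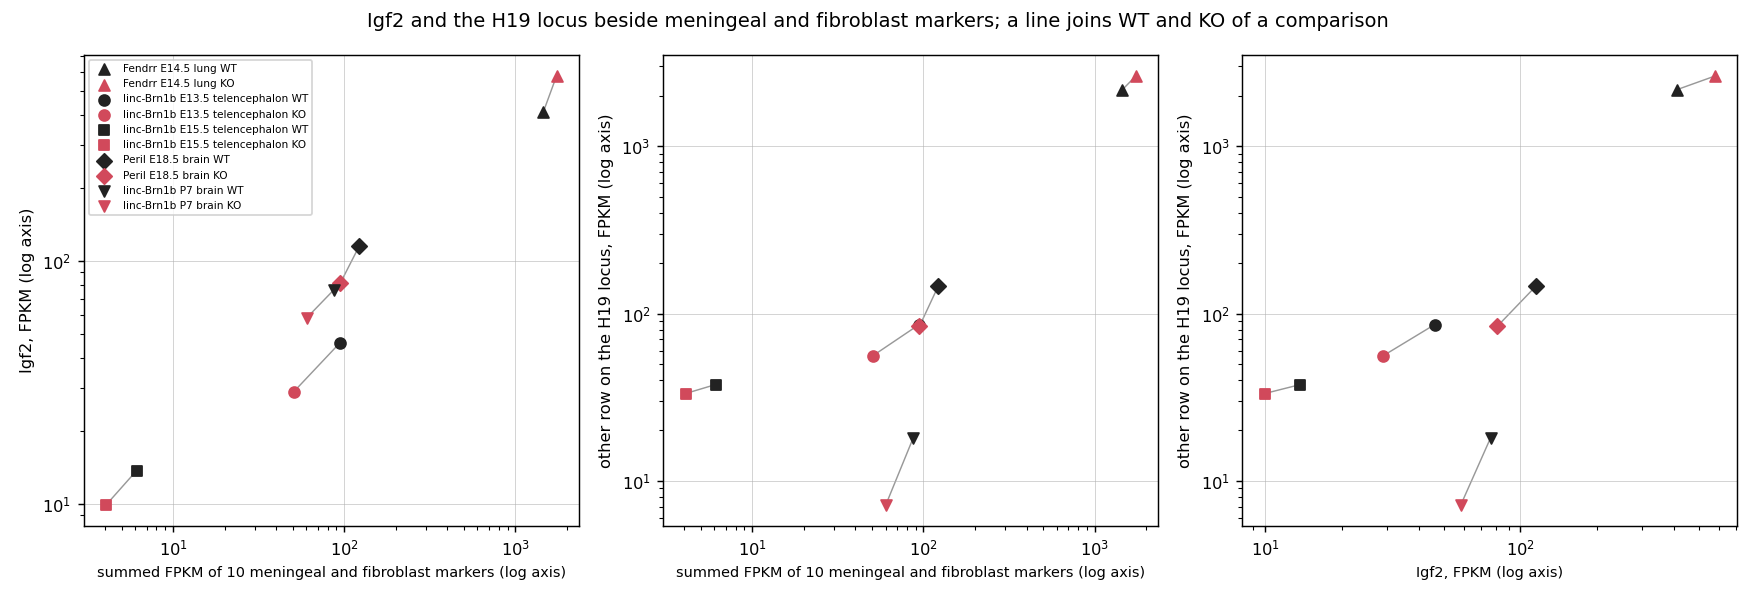
Igf2 (left) and the H19-locus row (middle) against the summed level of 10 meningeal and fibroblast markers, and the H19-locus row against Igf2 (right), in FPKM on logarithmic axes, with a line from wild type (black) to knockout (red) in each of the 5 comparisons. Knockout lies below and to the left of wild type in the 4 brain comparisons and above and to the right in lung, and the H19-locus row is lowest in the P7 groups, at 18.1 and 7.20 FPKM.

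Ndn had no common sign. It was lower in all 3 linc-Brn1b knockout groups (-0.40, -0.79 and -0.43) and higher in knockout in the Peril strain (0.65) and in lung (0.38). Its neighbours in the same imprinted cluster of chromosome 7 are the MAGE family gene Magel2 and the ring finger protein gene Mkrn3. Magel2 differed by 0.45 at E13.5, 0.17 at E15.5, 0.06 at P7, 0.04 in the Peril strain and -0.13 in lung, so that its sign was opposite to that of Ndn in all but the Peril strain. Mkrn3 differed by 0.02 to 0.08 over the 5 comparisons. Of the 4 MAGE relatives of Ndn that were kept, 0 passed the threshold in any knockout comparison. A count of 0 among so few is near the share over all genes kept, 0.497% to 6.65%. At P7 all 4 were lower in knockout, as Ndn was, with a median of -0.22. Of all 14090 genes kept, 6785 were lower at that age.

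Rian, which lies downstream of Meg3 and is maternally expressed with it, was 104 and 127 FPKM at E13.5, 156 and 149 FPKM at E15.5 and 412 and 408 FPKM at P7. It had the sign of Meg3 at E13.5 and E15.5 with smaller differences and the opposite sign at P7. From E15.5 to P7 both rose in wild type and in knockout. Dio3, a paternally expressed gene of the same cluster, was 3.86 and 2.84 FPKM at E13.5 and 0.782 and 1.01 FPKM at P7.

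Few of the other imprinted genes passed the threshold between genotypes, as was the case over all genes kept (0.497% to 6.65%). Of 19 to 22 paternally expressed genes kept per comparison, 1 passed the threshold in the Peril strain and 0 elsewhere. It was Airn, the antisense RNA of the Igf2r locus, at 0.586 FPKM in wild type and 1.93 in the libraries labelled knockout (0.89). Of 17 to 19 maternally expressed genes, 1 passed at E13.5 in the linc-Brn1b strain and 0 elsewhere. It was Commd1, a copper metabolism gene, at 52.8 and 32.7 FPKM (-0.67).

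With age they moved in both directions. From E13.5 to E15.5 in wild type, 4 of 20 paternally expressed genes fell and 3 rose. Peg12 (-1.57), Mest (-1.08) and Zdbf2 (-0.97) fell and Rasgrf1 (1.23) rose, and in knockout they differed by -1.19, -0.87, -0.81 and 1.16. Of the 19 maternally expressed genes 1 fell in wild type, Asb4 (-0.93), which differed by -0.84 in knockout. From E15.5 to P7 in wild type, 8 paternally expressed genes rose and 5 fell, with Nap1l5 at 20.1 and 157 FPKM (2.91), Rasgrf1 at 2.65 and 19.3 FPKM (2.47), Impact at 7.96 and 32.4 FPKM (1.90) and Mest at 79.7 and 19.7 FPKM (-1.96). Among maternally expressed genes 6 rose and 3 fell, with Kcnk9 (2.76), Slc22a3 (2.12), Cd81 (1.41) and Rian (1.40) the largest. At the first step in knockout, 5 of 20 paternally and 2 of 19 maternally expressed genes fell. Over all genes kept, 7.66% fell at that step in wild type and 7.29% in knockout, and 8.61% rose in wild type. From E15.5 to P7 in wild type, 27.7% of all genes kept fell and 22.4% rose. No test set the lists apart from all genes at either step.

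The IGF pathway had 0 of 18 genes past the threshold in the Peril and Fendrr comparisons and 0 of 17 in each linc-Brn1b comparison. Igf2 itself passed it at E13.5 only, and a count of 0 among so few genes is near the share over all genes, which was 0.497% to 6.65%. Igf1r, the receptor that carries the IGF signal, was 17.5 and 18.7 FPKM at E13.5, 14.9 and 14.4 FPKM at E15.5 and 5.24 and 5.22 FPKM at P7. Igf2r, which clears Igf2 and is itself imprinted, was 98.3 and 91.3 FPKM in lung and between 4.89 and 16.9 FPKM in the 8 brain groups.

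With age, the mRNA-binding proteins of Igf2 had the largest differences of this list. In wild type, Igf2bp1 went from 16.1 FPKM at E13.5 to 5.83 FPKM at E15.5 (-1.32) and 0.0834 FPKM at P7 (-2.66). Igf2bp2 went from 39.7 to 19.9 (-0.96) and 1.37 FPKM (-3.14), and Igf2bp3 from 25.2 to 14.1 (-0.79) and 1.69 FPKM (-2.49). All 3 fell in knockout as well, by 1.21, 1.03 and 0.83 at the first step. Igf1, the growth factor of later life, was 0.449 FPKM at E15.5 and 6.21 FPKM at P7 (2.32) in wild type. In all, 5 of 17 pathway genes fell and 2 rose in wild type at the first step (median -0.34), and 9 fell and 4 rose at the second (median -0.63, beside -0.12 over all genes kept). Of all genes kept, 7.66% fell and 8.61% rose at the first step, and 27.7% fell and 22.4% rose at the second.

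The genes whose course over the 10 groups was most like that of a member were ranked by Pearson's r of log2(FPKM + 1) over 10980 or 10981 genes. The 10 points share a split between lung and brain and a shared age course, so that high values of r are common. Ndn had 7 genes with r over 0.95, Peg3 61, Igf2 98, Cdkn1c 155, Meg3 199, Dlk1 454, Snrpn 496, H19 534, Grb10 721 and Plagl1 855. These counts say how ordinary each course was.

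For Igf2 the nearest genes were Islr (0.995), Cox6b2 (0.993) and Dcn (0.992). Islr stands on the list of meningeal and fibroblast markers, and Dcn encodes decorin, a matrix protein of fibroblasts. For the Meg3 symbol row, whose lung value does not hold the signal of the locus, they were Apc (0.996), Asb1 (0.994) and Gpm6b (0.994), for Dlk1 Zfp395 (0.997), Mettl1 (0.994) and Kdelr2 (0.993), and for Peg3 Agps (0.980), Phactr2 (0.979) and Tpcn1 (0.977). For Cdkn1c they were Pitpnb (0.993), D4Ertd22e (0.991) and Mthfd2 (0.990). Grb10 was nearest to Palld (0.999), Ccdc86 (0.998) and Atf1 (0.998), and Plagl1 to Mtbp (0.997), Ptbp1 (0.997) and Npm1 (0.997). Ndn was nearest to Zswim1 (0.964), Rgma (0.960) and Mcrs1 (0.958). The Snrpn symbol row, whose lung value does not hold the signal of the locus, was nearest to Mtmr9 (0.999), Slc35f1 (0.999) and Dpysl4 (0.998). The H19 symbol row, at or near 0 in brain, was nearest to Arhgef5 (0.998), Pecam1 (0.997) and Ehd2 (0.996). Over the 6 linc-Brn1b groups alone, none of these 30 pairs was again among the nearest 3. Their r over these 6 groups still ranged from 0.546 (Mcrs1 with Ndn) to 0.997 (Palld with Grb10).

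Among the members, Meg3 ran opposite to Dlk1 (r = -0.931) and to Cdkn1c (-0.983) over the 6 linc-Brn1b groups, which leave out the low lung value of the Meg3 symbol row. Grb10 and Plagl1 ran together, with r = 0.985 over the 10 groups and 0.964 over the 6. Igf2 and Dlk1 had r = 0.771 over the 10 groups and -0.204 over the 6, where Igf2 turned upward at P7 and Dlk1 did not.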

How the data were processed

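RNA of 21 libraries was sequenced by the authors, aligned to mm9 with TopHat2 and quantified with Cufflinks 2.0.2 (Cuffdiff2). The authors deposited 3 tables of FPKM values, scaled and pooled over the libraries of each group, with 1 value per group, so that depth per library is unknown. Columns with fold changes, test statistics, p-values, q-values and significance flags of the authors' comparisons were not used. The linc-Brn1b table repeats the values of a group in each of its comparisons, and 1 column per group was read. The first value column of the Peril and Fendrr tables was taken as wild type, as in the linc-Brn1b table. Columns of values per library numbered 0.

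Rows with failed estimates were left out. Genes with a mean of at least 1 FPKM over the groups of a table were kept, a pseudocount of 1 FPKM was added, and log2 values were subtracted (Python 3, pandas, numpy). A difference of 1.5-fold was taken as a call. The genes and all lists were chosen with earlier results of these data known. From each list, up to 4 genes with the largest difference past 1.5-fold were named per comparison, and 3 genes of most similar course per gene. Magel2, Mkrn3, Rian, Dio3, Igf1r, Igf2r, Ttr, Pomc, Gh, Avp and the rows on member loci were named after their values were seen. The calling code was run on simulated data, which says nothing of the error of a call. Gene positions are from GENCODE M1 on mm9, and 1 was added to table starts. Alternatives are given in the closing section.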

Additional observations from a re-analysis of the deposited data

How the results depend on the processing

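No paired analysis was possible because the tables hold 1 value per group and none per library. Leaving out replicates was not run for the same reason. A pseudocount of 0.1 FPKM, no minimum on the mean, a minimum of 5 FPKM and centring on the median moved none of the 9 counts of members past the threshold by over 1.5 times. At E13.5 the count was 2 in place of 3 under centring, which ended the Meg3 call (0.54 in place of 0.59), and under the minimum of 5 FPKM. That minimum also took 1 from each of the 4 age counts. At a fold of 2 in place of 1.5, the count was 0 in place of 1 in the Peril strain, at E15.5 and at P7, 0 in place of 3 at E13.5, 3 in place of 7 and 2 in place of 6 from E13.5 to E15.5 in wild type and knockout, and 5 in place of 8 from E15.5 to P7 in knockout. Summing all rows on a member's locus, an alternative chosen after seeing the data, gave 2 in place of 1 in the Peril strain and at P7, and 4 in place of 3 at E13.5, with the H19 locus past the threshold. From E13.5 to E15.5 it gave 8 in place of 7 in wild type and of 6 in knockout, and from E15.5 to P7 8 in place of 6 and 10 in place of 8, where Snrpn gained a call in each but the first. Without the Peril table, also chosen after seeing the data, 4 of 8 members in place of 3 were lower in every brain comparison. Over the 6 linc-Brn1b groups alone, 0 of the 30 most similar genes came back among the nearest 3. No called difference changed sign under a pseudocount of 0.1 FPKM, centring or locus sums. The median of all genes shifted by -0.12 from E15.5 to P7 in both genotypes and by 0.05 between genotypes at E13.5. Depth, the spread between animals and any error of these levels are unknown.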

Other observations

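Relatives of the members were read as well. Of the cell cycle inhibitors related to Cdkn1c, Cdkn1b was 74.7 FPKM at E15.5 and 25.9 FPKM at P7 in wild type (-1.49), in the direction of Cdkn1c, while Cdkn1a was 7.504 and 26.9 FPKM (1.71). Cdkn2c was 4.71 FPKM in wild type and 2.74 in knockout at P7 (-0.61). It was the only 1 of the 5 kept to pass 1.5-fold at that age, beside Cdkn1c itself, where 4.03% of all genes kept did. At E13.5, 1 of the 5 was lower past 1.5-fold in knockout too, where 6.65% of all genes kept passed in either direction. Plagl2 and Plag1, relatives of Plagl1, fell in both genotypes at both steps, Plagl2 from 16.3 to 7.31 and 1.74 FPKM and Plag1 from 2.95 to 1.46 and 0.291 FPKM in wild type. Grb14, an adapter of the Grb10 family, took the opposite course to Grb10, with 3.84, 7.95 and 15.7 FPKM at E13.5, E15.5 and P7 in wild type.

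The 3 microRNA rows that share a locus with a member were listed at 0 FPKM in every group.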
